A study of Mus musculus with 8 samples.

Results

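The 10 genes described here, Cdx1, Igfn1, Camk2n1, Hap1, Fzd6, Jag2, Sptb, Hspg2, Fgfr3 and Jup, had higher transcript levels in a mouse B cell line named for the microRNA miR-148a than in its control line, both without and with stimulation of the B cell receptor. They were chosen by that measured difference and are taken by name from the 24054 gene rows of the deposited count table, and all 10 were found there and passed the filter on low counts. Both lines are stable derivatives of WEHI-231, an immature mouse B cell lymphoma line, and the labels call them WEHI-control and WEHI-miR-148a. Each was sampled either untreated or after anti-IgM, an antibody that crosslinks the B cell receptor, at 2 ug/ml for 14 h. This gives 4 groups of 2 libraries of polyA-selected RNA: WEHI-control without treatment, WEHI-control with anti-IgM, WEHI-miR-148a without treatment and WEHI-miR-148a with anti-IgM. How the lines were made, and whether each is 1 clone or a pool, is not given in the sources used here, so a difference due to the microRNA and one due to the derivation of the line cannot be told apart.

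The genes belong to different systems. Fzd6, Fgfr3 and Jag2 act at the cell surface in 3 signalling pathways: Fzd6 is a Frizzled receptor for Wnt proteins, Fgfr3 a receptor tyrosine kinase for fibroblast growth factors, and Jag2 a membrane-bound ligand of Notch receptors. Jup encodes plakoglobin, a catenin of desmosomes and adherens junctions, Sptb encodes the beta spectrin of the red cell membrane skeleton, and Hspg2 encodes perlecan, a heparan sulfate proteoglycan of basement membranes. Camk2n1 is an inhibitor of the calcium and calmodulin-dependent kinase CaMKII, Hap1 binds huntingtin and works in vesicle transport, Cdx1 is a homeobox transcription factor of the intestine and the embryonic body axis, and Igfn1 is an immunoglobulin and fibronectin domain protein known from skeletal muscle. A microRNA lowers its targets by pairing its seed, bases 2 to 8, with sites that lie mostly in 3′ untranslated regions (UTRs).

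Total counts ran from 5810227 to 18660373 per library, and the 10 genes were covered by 25 to 820 counts per library. Levels are given as CPM, counts divided by the TMM-adjusted library size and scaled to a common total, and differences as log2 fold changes ± SE from edgeR's quasi-likelihood fit over all 8 libraries. The mean level of the 10 genes over the libraries ran from 6.08 CPM for Fzd6 to 34.4 CPM for Sptb, and the median of the 11291 genes tested was 32.5 CPM. All 14 B lineage markers in the table passed the filter. Their summed level was 4604 to 5117 CPM in the control libraries and 5379 to 5917 CPM in the miR-148a libraries, so it too was higher in the miR-148a line. The Mir148a row held 1 count over the 8 libraries, in replicate 1 of the untreated miR-148a group, which leaves the label of that line unchecked by the microRNA itself. PolyA selection does not capture mature microRNAs.

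The seed of miR-148a bears on the name of the line, and its mature sequence (RefSeq, chr6:51269829-51269850, minus strand, GRCm38.p6) is shown with the seed in capitals. A match to the whole seed, TGCACTG, was searched on the sense strand of the longest annotated 3′ UTR of each gene. It was found once each in Sptb (chr12:76583032-76583061, minus strand) and Fgfr3 (chr5:33735721-33735750, plus strand), and both 30-base windows are shown 5′ to 3′ with the match in capitals (GENCODE M21, GRCm38).
mmu-miR-148a-3p: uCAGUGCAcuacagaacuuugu
Sptb site: ccagggccccacacTGCACTGcaatagctg
Fgfr3 site: gccccttgggaacaTGCACTGctgtagagt
The other 8 genes had no such match in that UTR. The 10 genes had a site in 20% of cases, and 15.34% of the 10460 tested genes with an annotated 3′ UTR had one. The median UTR length was 1224 bases for the 10 genes and 1170 bases for those tested genes. A match is a description of the sequence and not a measured target.

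Without treatment the 10 genes were higher in the miR-148a line by log2 fold changes of 1.01 for Sptb to 2.10 for Cdx1, and with anti-IgM by 1.17 for Jup to 2.62 for Cdx1. These 2 differences are the values by which the genes were chosen, so they are given as a description and carry no test here. With the threshold of 0.05 on the adjusted p, 28 genes (0.248% of those tested) were called higher in the miR-148a line untreated and 153 (1.36%) with anti-IgM. Both calls were met by 18 genes, and the 10 members are those with the largest difference under anti-IgM. Jup, at 1.17 ± 0.17, was the last inside, and Klf3, at 1.08 ± 0.13, the first outside, followed by Gkap1 at 0.99 ± 0.15. The choice of the 10 rests on the fit without the replicate number as a block. With that block 442 genes (3.91%) were called higher untreated and 892 (7.90%) with anti-IgM. At the limit of the call itself, untreated Timp2 passed at an adjusted p of 0.04985 in edgeR's test and Ltbp4 missed at 0.05002. The member Cdx1 had the same untreated value as Timp2. It was not called untreated with RLE size factors, from the 4 untreated libraries alone or with any 1 library left out, where its difference was 1.67 to 2.87. The member Jag2 was not called untreated from those 4 libraries or with any 1 library left out either, at 0.91 to 1.34. With anti-IgM Avil passed at 0.04996 and Kank2 missed at 0.05013 in the same test. The median difference was 1.24 untreated and 1.28 with anti-IgM for the 10 genes, against 0.01 and -0.01 for all genes tested.

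**Figure D1:**
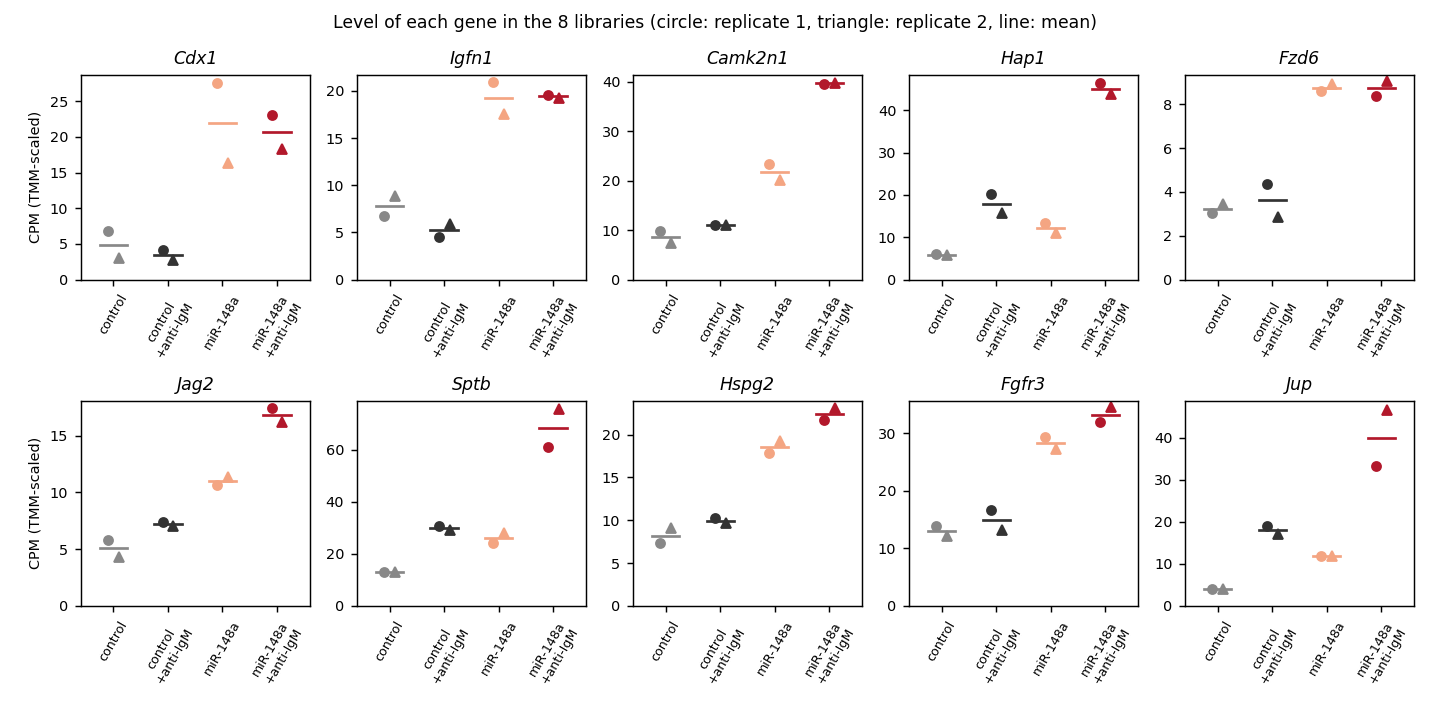
Level of each of the 10 genes in CPM (linear axis from 0) in the 4 groups. Circles are replicate 1, triangles replicate 2, and lines the mean of the 2 libraries. In every panel the miR-148a libraries lie above the control libraries of the same treatment. For Hap1, Sptb, Jup, Camk2n1, Jag2 and Hspg2 both anti-IgM groups lie above the untreated group of their own line.

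In each of the 10 genes both miR-148a libraries lay above both control libraries of the same treatment. For 7 of them, Cdx1, Igfn1, Camk2n1, Fzd6, Jag2, Hspg2 and Fgfr3, all 4 miR-148a libraries also lay above all 4 control libraries whatever the treatment. Hap1, Sptb and Jup were the other 3, because their anti-IgM control libraries were higher than the untreated libraries of the miR-148a line. The replicate number follows the prefix of the library names, and each number holds 1 library of every group. Within a number and treatment the miR-148a library was above its control in 40 of 40 pairs over the 10 genes. The genes were chosen by these line differences, so these separations are a description. Their share over all tested genes was not counted. The labels do not state whether the 2 replicates were separate cultures, so errors and p-values describe the spread between libraries alone, and that spread may be technical. In bulk RNA, more cells of a kind that carries a transcript and more of that transcript per cell cannot be told apart.

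**Figure D2:**
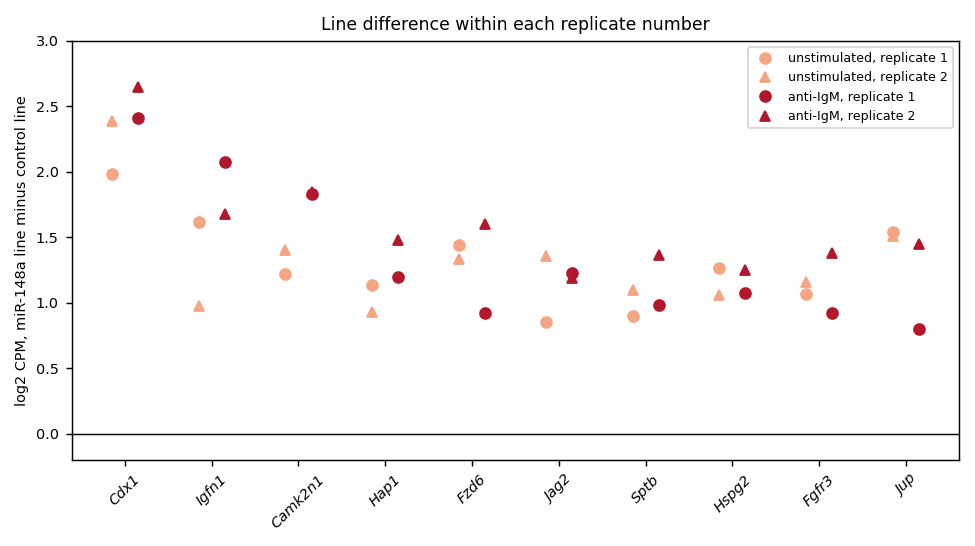
Difference of log2 CPM (prior count 2) between the miR-148a and the control library of the same replicate number, for each gene. Light points are untreated and dark points anti-IgM, circles are replicate 1 and triangles replicate 2; all 40 points lie above 0.

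The Wnt receptor gene Fzd6 stood at 3.05 and 3.43 CPM in the untreated control libraries (replicates 1 and 2) and at 8.58 and 8.92 CPM in the untreated miR-148a libraries. With anti-IgM it stood at 4.35 and 2.87 CPM in the control line and at 8.39 and 9.04 CPM in the miR-148a line. The 2 lines were thus apart in both treatments, and within each line the 2 treated libraries lay around the untreated ones. The log2 difference between lines was 1.44 ± 0.23 untreated and 1.33 ± 0.25 with anti-IgM. Fzd6 overlaps an unnamed noncoding gene on the opposite strand, and the strand setting of the counting is not given in the sources used here. Of the other Frizzled genes, Fzd5, Fzd2 and Fzd7 passed the filter, and none of them was called in either line difference. Per kb of exon, Fzd5 had the highest mean of the family over the 8 libraries, 2.23 CPM per kb, followed by Fzd2 at 1.28 and Fzd6 at 1.26 CPM per kb. Within the miR-148a line the 4 Fzd6 libraries, at 1.74 to 1.88 CPM per kb, all lay above the 4 Fzd2 libraries and below the 4 Fzd5 libraries.

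Fgfr3 stood at 13.9 and 12.1 CPM in the untreated control libraries and at 29.3 and 27.2 CPM in the untreated miR-148a libraries. With anti-IgM the values were 16.7 and 13.1 CPM in the control line and 31.9 and 34.5 CPM in the miR-148a line. The lowest miR-148a library was well above the highest control library, and the difference was 1.11 ± 0.14 untreated and 1.18 ± 0.15 with anti-IgM. Fgfr3 also overlaps an unnamed gene on the opposite strand, with the same limit on strand as for Fzd6. Fgfr3 was the only one of the 4 FGF receptor kinases to pass the filter. Fgfr2 had no count in any library, Fgfr4 at most 1 and Fgfr1 at most 4 counts in a library, which is about the floor of 3 counts used here for a level not told from 0. The floor corresponds to 0.166 to 0.502 CPM depending on the library and covers counting error only.

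Jag2 stood at 5.82 and 4.33 CPM in the untreated control libraries and at 10.6 and 11.4 CPM in the untreated miR-148a libraries. With anti-IgM it stood at 7.37 and 7.04 CPM in the control line and at 17.4 and 16.2 CPM in the miR-148a line. The 4 groups were ordered without overlap, the untreated control lowest and the treated miR-148a group highest. The difference between lines was 1.10 ± 0.18 untreated and 1.22 ± 0.18 with anti-IgM. Jag1, the other Jagged ligand, moved the other way with anti-IgM. Its response was -0.73 ± 0.21 in the control line (adjusted p = 0.0425 in edgeR's test) and -0.90 ± 0.20 in the other (adjusted p = 0.0099). The fall in the control line was lost with DESeq2 (adjusted p = 0.14). The line difference of Jag1 was 0.47 ± 0.19 untreated and 0.30 ± 0.22 with anti-IgM and was not called. The Delta ligands were low: Dll1 and Dll3 did not pass the filter, and Dll4 passed with at most 1.85 CPM in a library.

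**Figure D3:**
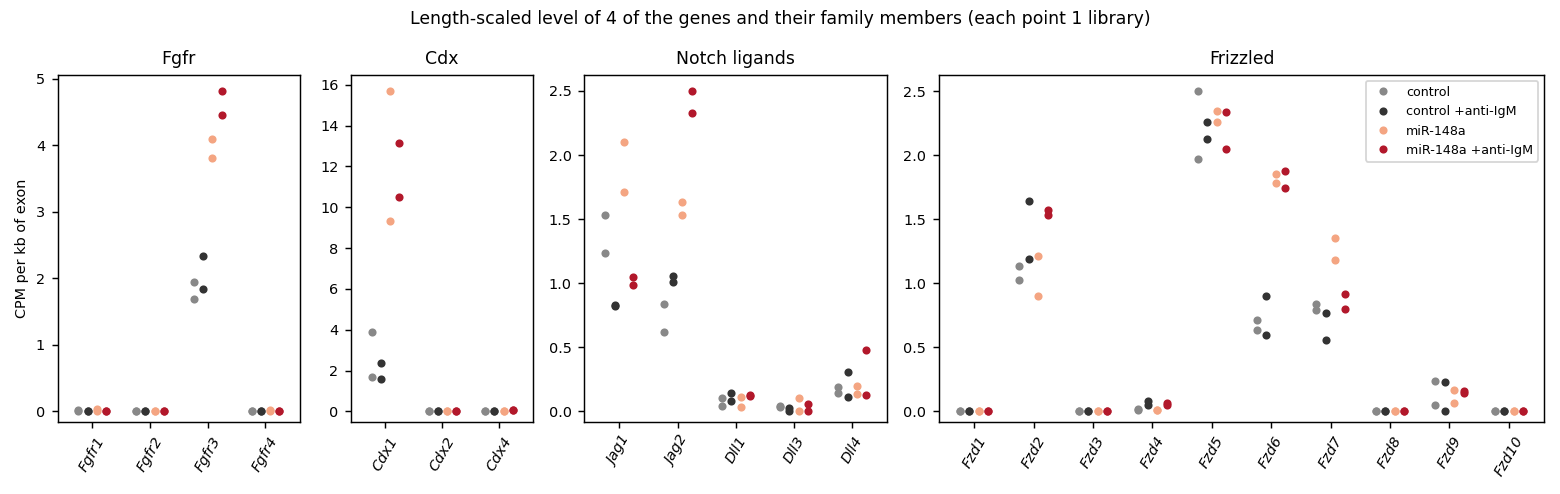
Level per kb of exon (CPM per kb, linear axis) of Fgfr3, Cdx1, Jag2 and Fzd6 beside the other genes of their families, 1 point per library, coloured by group. The other FGF receptors and the other Cdx genes lie at or near 0. Among the Notch ligands the Delta genes are low, and Jag2 lies below Jag1 in the untreated and above it in the treated libraries of both lines. Fzd6 lies in the range of Fzd2, Fzd5 and Fzd7, and the other Frizzled genes lie at or near 0.

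The nuclear factor Cdx1 had the largest difference and the widest spread. It stood at 6.82 and 2.98 CPM in the untreated control libraries and at 27.5 and 16.3 CPM in the untreated miR-148a libraries. With anti-IgM the values were 4.19 and 2.78 CPM in the control line and 23.0 and 18.4 CPM in the miR-148a line. Even so, all 4 miR-148a libraries were above all 4 control libraries. The difference was 2.10 ± 0.36 untreated and 2.62 ± 0.42 with anti-IgM, with the largest SE of the 10 genes in both. Replicate 2 was lower than replicate 1 in each of the 4 groups, by 0.32 to 1.15 on the log2 CPM scale, while the difference between lines within a replicate number was 1.98 and 2.38 untreated and 2.41 and 2.65 with anti-IgM. Cdx2 and Cdx4, the other caudal genes, had at most 1 count in any library.

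Among the adhesion, skeleton and matrix genes, Jup stood at 3.93 and 4.06 CPM in the untreated control libraries and at 11.8 and 11.9 CPM in the untreated miR-148a libraries. With anti-IgM it stood at 19.1 and 17.0 CPM in the control line and at 33.4 and 46.7 CPM in the miR-148a line. The replicates were close together except in the treated miR-148a group. The difference was 1.57 ± 0.20 untreated and 1.17 ± 0.17 with anti-IgM. Beta-catenin (Ctnnb1), the close relative of plakoglobin, was far higher per kb of exon, at a mean of 83.1 CPM per kb over the libraries against 2.87 for Jup. Its line difference was 0.25 ± 0.10 untreated and 0.31 ± 0.10 with anti-IgM, called in neither without the replicate block and in both with it.

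Sptb stood at 12.97 and 12.99 CPM in the untreated control libraries and at 24.3 and 28.0 CPM in the untreated miR-148a libraries. In treated cells it was at 30.8 and 29.3 CPM in the control line and at 61.2 and 75.7 CPM in the miR-148a line. The untreated miR-148a libraries and the treated control libraries had similar levels, and the treated miR-148a libraries were highest. The difference was 1.01 ± 0.14 untreated and 1.20 ± 0.13 with anti-IgM. Sptb overlaps Plekhg3, which lies on the opposite strand, and without the strand setting their reads cannot be told apart. Plekhg3 differed by 0.59 ± 0.25 untreated and 0.78 ± 0.26 with anti-IgM, the second called with the replicate block only. Sptbn1, the main beta spectrin of cells other than red cells, was higher per kb of exon, at a mean of 16.2 CPM per kb against 2.83 for Sptb, and differed between the lines by -0.05 ± 0.12 untreated and -0.17 ± 0.12 with anti-IgM, neither called. Sptbn4, another beta spectrin gene, was called higher with anti-IgM with the block only, at 1.16.

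Hspg2 stood at 7.32 and 9.11 CPM in the untreated control libraries and at 17.9 and 19.2 CPM in the untreated miR-148a libraries. With anti-IgM it stood at 10.2 and 9.65 CPM in the control line and at 21.7 and 23.2 CPM in the miR-148a line. Its difference was 1.19 ± 0.15 untreated and 1.18 ± 0.15 with anti-IgM, nearly the same in both treatments. Agrn, which encodes agrin, another basement membrane heparan sulfate proteoglycan, stood at 131 to 182 CPM over the libraries and was not called in any of the 4 comparisons. Col18a1, the third such core protein, had at most 4 counts in a library.

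Of the intracellular regulators, Camk2n1 stood at 9.92 and 7.49 CPM in the untreated control libraries and at 23.4 and 20.1 CPM in the untreated miR-148a libraries. After anti-IgM the control libraries were at 11.05 and 10.96 CPM and the miR-148a libraries at 39.6 and 39.9 CPM. The 4 groups thus did not overlap, and the treated miR-148a group was highest. The difference was 1.30 ± 0.15 untreated and 1.85 ± 0.16 with anti-IgM. Its paralog Camk2n2, with a similar mean level per kb of exon (4.62 against 4.57 CPM per kb for Camk2n1), was not called in any of the 4 comparisons.

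Hap1 stood at 5.93 and 5.69 CPM in the untreated control libraries and at 13.2 and 10.99 CPM in the untreated miR-148a libraries. In the treated groups it was at 20.1 and 15.7 CPM in the control line and at 46.4 and 43.8 CPM in the miR-148a line. The 4 groups did not overlap, and both treated groups were above both untreated ones. The difference was 1.06 ± 0.17 untreated and 1.35 ± 0.15 with anti-IgM. An unnamed predicted gene overlaps Hap1 on the same strand, and how the counting divided their reads is not given in the sources used here. Trak1 and Trak2, which encode related kinesin adaptors, were not called in either line difference.

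Igfn1 stood at 6.71 and 8.84 CPM in the untreated control libraries and at 20.9 and 17.5 CPM in the untreated miR-148a libraries. After treatment it was at 4.52 and 5.91 CPM in the control line and at 19.6 and 19.3 CPM in the miR-148a line. The miR-148a libraries lay in a narrow range in both treatments, and the treated control libraries were the lowest. The difference was 1.32 ± 0.18 untreated and 1.86 ± 0.21 with anti-IgM.

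The order of levels, compared per kb of exon, changed with the group. In the untreated control line Cdx1 was at 1.70 and 3.90 CPM per kb, and Camk2n1 (1.69 and 2.23) and Fgfr3 (1.69 and 1.94) overlapped it. Hap1 followed at 1.51 and 1.57 CPM per kb and Sptb at 1.07 in both libraries. Igfn1, Jag2, Fzd6, Jup and Hspg2 were between 0.511 and 0.983 CPM per kb, and neighbours in that order overlapped, except that the lower Fzd6 library (0.633) was just above the higher Jup library (0.631). In the treated miR-148a line Cdx1 (10.5 and 13.2 CPM per kb) and Hap1 (11.6 and 12.3) overlapped at the top, followed by Camk2n1 at 8.92 and 8.97. Jup (5.19 and 7.26) and Sptb (5.04 and 6.23) overlapped, and Fgfr3 was next at 4.46 and 4.82 CPM per kb. Jag2 (2.33 and 2.50), Igfn1 (2.14 and 2.18), Fzd6 (1.74 and 1.88) and Hspg2 (1.52 and 1.62) came last in that order, without overlap between neighbours.

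The response to anti-IgM was not used to choose the genes and was tested within each line, over all genes. In the control line 3 of the 10 genes rose, Jup, Hap1 and Sptb, and none fell, against a background of 9.60% of tested genes called higher and 7.45% called lower. In the miR-148a line 5 rose, the same 3 with Camk2n1 and Jag2, and none fell, against 14.7% called higher and 14.0% lower. With the replicate number as a block the counts of the 10 genes were the same, 3 and 5, while the background of genes called higher went to 17.6% and 22.8%. The median response of the 10 genes was 0.30 in the control line and 0.44 in the miR-148a line, against 0.01 and 0.002 over all genes tested. The 2 responses share no library with each other, but each shares libraries with the line differences that chose the genes.

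Jup had the largest response in the control line, 2.17 ± 0.20 (adjusted p = 0.000629, edgeR's quasi-likelihood test), and rose by 1.77 ± 0.17 in the miR-148a line (adjusted p = 0.000406). Hap1 rose by 1.59 ± 0.17 (adjusted p = 0.00112, edgeR) in the control line and had the largest response in the miR-148a line, 1.89 ± 0.15 (adjusted p = 0.000345). Sptb rose by 1.21 ± 0.14 (adjusted p = 0.00164, edgeR) and 1.40 ± 0.13 (adjusted p = 0.000377). All treated libraries of these genes lay above all untreated libraries of the same line. These 6 calls held with each alternative tool, scaling and filter and without each library in turn, with an adjusted p of at most 0.0142.

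Camk2n1 rose in the miR-148a line by 0.87 ± 0.14 (adjusted p = 0.0025, edgeR) and differed by 0.32 ± 0.17 in the control line (adjusted p = 0.228), where the treated libraries were also above the untreated ones. Jag2 rose by 0.61 ± 0.17 in the miR-148a line (adjusted p = 0.0272, edgeR) and differed by 0.48 ± 0.19 in the control line (adjusted p = 0.124). The Jag2 call was lost with DESeq2 (adjusted p = 0.115) and without any 1 of the 4 miR-148a libraries (adjusted p = 0.089 to 0.16). A response past the threshold in 1 line and not in the other is not a difference between lines.

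The remaining 5 genes did not pass in either line. Hspg2 differed by 0.28 ± 0.16 and 0.28 ± 0.14 in the control and the miR-148a line, and Fgfr3 by 0.17 ± 0.15 and 0.24 ± 0.13. Igfn1 was at -0.52 ± 0.21 in the control line (adjusted p = 0.127, edgeR), with both treated libraries below both untreated ones, and at 0.01 ± 0.17 in the miR-148a line. Cdx1 was at -0.62 ± 0.46 and -0.09 ± 0.33 and Fzd6 at 0.11 ± 0.26 and -0.0005 ± 0.22, and the sign of these values changed when single libraries were left out. The difference between the 2 responses equals the difference between the 2 line differences that chose the genes, so it is given with no test. It was largest for Camk2n1 (0.56 ± 0.22), Igfn1 (0.54 ± 0.28) and Cdx1 (0.52 ± 0.57), lowest for Jup (-0.40 ± 0.26), and between -0.11 and 0.30 for the other 6.

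**Figure D4:**
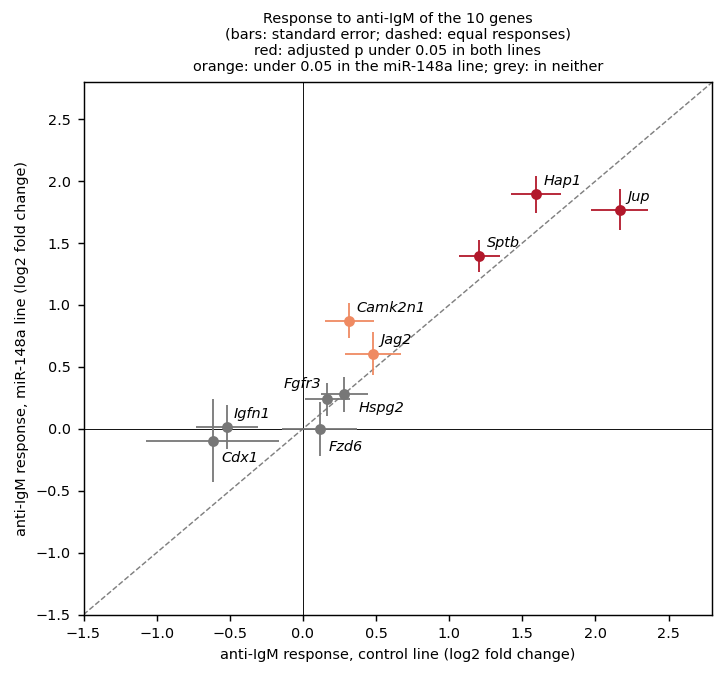
Log2 fold change with anti-IgM in the control line (horizontal) and the miR-148a line (vertical) of each gene, with standard errors. Jup, Hap1 and Sptb (red) lie at the upper right and passed the test in both lines, Camk2n1 and Jag2 (orange) passed in the miR-148a line, and the other 5 (grey) lie near 0 or below it.

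The promoters of the 3 genes that rose in both lines are shown to set what they share beside their response. They come from the RefSeq table (GRCm38.p6, 250 bases before to 50 after the start), in which 7 of the 10 genes had an entry used here. GGGCGG on either strand (a GC box) and TATAAA are in capitals, and all 3 are on the minus strand: Hap1 at chr11:100356092-100356391, Jup at chr11:100397741-100398040 and Sptb at chr12:76710498-76710797.
Hap1 promoter: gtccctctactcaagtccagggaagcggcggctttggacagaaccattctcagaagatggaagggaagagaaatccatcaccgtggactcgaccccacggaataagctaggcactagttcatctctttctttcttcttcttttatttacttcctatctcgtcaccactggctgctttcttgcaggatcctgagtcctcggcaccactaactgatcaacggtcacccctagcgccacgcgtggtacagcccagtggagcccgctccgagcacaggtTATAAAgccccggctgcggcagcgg
Jup promoter: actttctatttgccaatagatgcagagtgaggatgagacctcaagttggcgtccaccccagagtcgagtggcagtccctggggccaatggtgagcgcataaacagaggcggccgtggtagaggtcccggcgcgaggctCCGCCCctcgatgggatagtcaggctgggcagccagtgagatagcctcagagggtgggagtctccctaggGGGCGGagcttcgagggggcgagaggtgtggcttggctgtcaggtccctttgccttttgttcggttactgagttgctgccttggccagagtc
Sptb promoter: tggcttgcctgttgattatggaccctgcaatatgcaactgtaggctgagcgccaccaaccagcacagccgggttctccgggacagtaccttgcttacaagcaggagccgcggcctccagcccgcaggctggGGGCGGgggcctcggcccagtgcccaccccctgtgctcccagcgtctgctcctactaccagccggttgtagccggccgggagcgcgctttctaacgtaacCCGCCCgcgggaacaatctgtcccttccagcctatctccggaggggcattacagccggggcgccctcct
The 3 windows differ in these letters: Hap1 holds TATAAA and no GC box, and Jup and Sptb hold GC boxes and no TATAAA. Over the 7 genes with a window, a GC box was in 5 (Hspg2, Fgfr3, Jup, Sptb and Jag2), against 65.87% of the 8570 tested genes with one, and TATAAA in Hap1 alone, against 6.511%. The NF-kB motif, GGGA and CC spaced by 4 bases, was in 3 (Hspg2, Fgfr3 and Jup; 26.38% of tested genes), CCAAT in 2 (Fgfr3 and Jup; 39.18%), the RBPJ core TGGGAA in Hspg2 (22.3%) and the TCF/LEF core CTTTGA in Igfn1 (11.79%). CACGTG, TGACGTCA and TGANTCA, whose shares over tested genes were 10.56%, 3.524% and 4.457%, were in none of the 7 windows. All motifs were searched on both strands. GC content ran from 48.67% for Igfn1 to 86% for Jag2, with a median of 61% over tested genes.

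The genes lie on 7 chromosomes, and positions are GRCm38 from GENCODE M21. Hap1 (chr11:100347327-100356128) and Jup (chr11:100368958-100397763) are neighbours 12.8 kb apart on the minus strand, with an unnamed predicted gene between them. They are also 2 of the 3 genes that rose with anti-IgM in both lines. Hspg2 (chr4:137468769-137570630) and Camk2n1 (chr4:138454314-138460123) lie 883.7 kb apart, and Sptb (chr12:76580488-76710547) and Jag2 (chr12:112907819-112929776) share chromosome 12. Igfn1 is at chr1:135953578-136006342, Fgfr3 at chr5:33721674-33737068, Fzd6 at chr15:39006034-39038188 and Cdx1 at chr18:61018862-61036199. The nearest tested genes on each side, members apart, numbered 18, and none was called in either line difference without the replicate block. With it none was called untreated and 4 were with anti-IgM (Csrp1, Nudt14, Plekhg3 and Tmem9, at 0.31 to 0.81). Their median difference was 0.04 untreated and 0.07 with anti-IgM. The highest were Camk2a beside Cdx1 in untreated cells, 0.85 ± 0.41, and Plekhg3, which overlaps Sptb, with anti-IgM, followed there by Nudt14 beside Jag2, at 0.68 ± 0.22. Eif1, on the other side of Hap1, was at -0.01 ± 0.08 and -0.19 ± 0.08, and Nt5c3b, on the other side of Jup, at 0.04 ± 0.11 and -0.09 ± 0.11.

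Over 10 lists written from the textbook pathways of the 10 genes, members left out, 147 of 281 genes were tested. The lists were written with earlier results of these data known, so their counts are a description. In the line difference 1 was called higher and 1 lower untreated, against 0.248% and 0.239% of all genes tested, and 3 higher and 4 lower with anti-IgM, against 1.36% and 1.16%. With the replicate block these counts were 12 and 6 untreated, against 3.91% and 3.37%, and 17 and 8 with anti-IgM, against 7.90% and 8.24%. In response to anti-IgM, 32 listed genes rose and 9 fell in the control line, against 9.60% and 7.45% of all genes tested. In the miR-148a line 33 rose and 12 fell, against 14.7% and 14.0%. The block gave 48 and 25 in the control line and 46 and 27 in the miR-148a line, against 17.6% and 17.2%, and 22.8% and 23.3%. The calls of genes named below, and the statements that a list held no call, are without the block. Calls with the block are not broken down by list here. The median of the listed genes was 0.12 and 0.09 for the line difference untreated and with anti-IgM, and 0.11 and 0.06 for the responses of the control and the miR-148a line.

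In the Notch list (25 tested) none was called higher in the miR-148a line without the block. Adam10, the protease that cuts ligand-bound Notch receptors, was lower there, at -0.72 ± 0.09 (adjusted p = 0.0218, edgeR) untreated and -0.81 ± 0.09 (adjusted p = 0.0109) with anti-IgM. Rbpj, the DNA-binding factor of the pathway, was lower in treated cells at -0.74 ± 0.13 (adjusted p = 0.0291, edgeR). Both have the opposite sign to the ligand Jag2. The receptor gene Notch3 rose with anti-IgM in both lines, by 1.01 ± 0.30 (adjusted p = 0.0499, edgeR) and 1.03 ± 0.27 (adjusted p = 0.0217), calls lost with DESeq2 (adjusted p = 0.194 and 0.0964). The glycosyltransferase Mfng fell by 0.86 and 0.63 on the log2 scale (adjusted p = 0.0098 and 0.0221, edgeR).

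In the Wnt list (26 tested) Axin2, a feedback inhibitor and common reporter gene of the pathway, differed between the lines by 0.79 ± 0.13 after anti-IgM (higher in the miR-148a line, adjusted p = 0.0243, edgeR) and by 0.27 ± 0.11 untreated (adjusted p = 0.396). It fell with anti-IgM in both lines, from a mean of 65.3 to 18.9 CPM in the control line and from 78.9 to 33.3 CPM in the miR-148a line. Ccnd1, the cyclin D1 gene, fell too, by 1.12 and 1.71 on the log2 scale (adjusted p = 0.0180 and 0.0018, edgeR). In the FGF list (13 tested) no gene was called between the lines, and the most abundant, Ptpn11, which encodes the phosphatase SHP2, was at -0.18 ± 0.14 and -0.38 ± 0.14. Dusp6, a phosphatase for ERK, rose in the control line by 2.07 ± 0.57 (adjusted p = 0.0393, edgeR). Fgf11 rose in both lines (0.55 ± 0.15 and 0.87 ± 0.15), and Fgf18 and the FGF receptor adaptor Frs3 rose in the miR-148a line, by 2.54 ± 0.60 and 1.22 ± 0.31.

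In the cell junction list (8 tested) 5 genes rose with anti-IgM in the control line and 4 in the miR-148a line, against 9.60% and 14.7% of all genes tested, and none fell. Of the other lists, the spectrin list had 4 and 5 of 13 higher and the Hox cofactor list 4 and 4 of 13. The sarcomere list had 3 and 2 of 8 higher, and the calmodulin kinase list 1 and 1 of 10. Ppl, which encodes the desmosomal plakin periplakin, rose by 2.19 ± 0.28 (adjusted p = 0.0021, edgeR) and 2.23 ± 0.26 (adjusted p = 0.0008). Evpl, which encodes envoplakin, rose by 0.91 ± 0.17 and 1.36 ± 0.16. Between the lines Evpl was higher with anti-IgM at 0.74 ± 0.16 (adjusted p = 0.0499, edgeR), and Ctnna1, which encodes alpha-catenin, was higher untreated at 0.67 ± 0.11 (adjusted p = 0.0499). Both calls were lost with RLE size factors (adjusted p = 0.0536 for each), while with DESeq2 Ctnna1 was also called with anti-IgM (adjusted p = 0.0492). Epithelial markers moved with the treatment as well: their summed level was 22.7 to 25.5 CPM in the 4 untreated libraries and 55.6 to 86.0 CPM in the treated ones. It came almost wholly from Krt18 and Cldn4, while Epcam, Krt19, Krt5, Krt14 and Cldn3 had no count in any library and Cdh1 at most 0.0766 CPM. Krt18, which encodes a simple epithelial keratin, was also higher in the miR-148a line, by 1.22 ± 0.22 untreated (adjusted p = 0.0513, edgeR) and 1.24 ± 0.19 with anti-IgM (adjusted p = 0.0191), while Cldn4 was at -0.55 ± 0.15 and -0.57 ± 0.14, not called. Summed levels of other marker lists differed with the treatment too. Fibroblast markers, nearly all from Vim, had 163 to 222 CPM untreated and 356 to 518 CPM treated, endothelial markers, mostly Pecam1, 24.4 to 32.8 and 53.7 to 77.6 CPM, and monocyte and macrophage markers 2.54 to 3.88 and 7.03 to 14.8 CPM. T cell markers, mostly Lck, overlapped, at 110 to 172 and 167 to 224 CPM. Col1a2, Col3a1, Kdr, Tie1, Lyz2 and S100a8 had no count in any library.

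In the basement membrane and heparan sulfate list (16 tested) Ndst1, an enzyme of heparan sulfate synthesis, was higher in the treated miR-148a cells, at 0.54 ± 0.12 (adjusted p = 0.0491, edgeR; 0.0507 with RLE size factors). Hpse, the heparan sulfate-cleaving heparanase, rose with anti-IgM by 1.16 ± 0.29 in the control line and 2.46 ± 0.29 in the miR-148a line, and Ndst2 rose in the control line by 0.50 ± 0.12. In the spectrin skeleton list (13 tested) Gypc, which encodes glycophorin C, was lower in the treated miR-148a cells at -1.10 ± 0.16 (adjusted p = 0.0184, edgeR), the opposite direction to Sptb. It also fell with anti-IgM in both lines, by 0.89 and 1.37 on the log2 scale. The band 4.1 family gene Epb4.1l1 rose by 3.11 ± 0.37 and 2.59 ± 0.34, and Sptbn1 by 0.55 ± 0.12 and 0.43 ± 0.12. Of 8 erythroid markers 2 passed the filter, and the summed level of the list was 1.61 to 4.09 CPM over the 8 libraries, mostly from Alas2 and Epor, while Hbb-b1 had no count in any.

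In the calmodulin kinase list (10 tested), the vesicle transport list around Hap1 (16 tested) and the caudal and Hox cofactor list (13 tested) no gene was called between the lines. The most abundant of the transport and the Hox cofactor list, Kif5b and Pbx2, differed untreated by -0.07 ± 0.10 and 0.22 ± 0.09. With anti-IgM, Camkk1, a kinase upstream of other calmodulin kinases, rose by 2.60 ± 0.17 (adjusted p = 0.000507, edgeR) and 2.89 ± 0.18 (adjusted p = 0.000308), and Camkk2 fell by 0.86 on the log2 scale in the miR-148a line. Of the transport genes, Ahi1, a partner of Hap1, rose in the control line by 0.80 ± 0.15, and Klc4 and Trak1 rose in the miR-148a line (both by 0.51 ± 0.14). The kinesin gene Kif5c had 2 and 0 counts in the untreated and 13 and 10 in the treated control libraries; the untreated counts are under the floor of 3, so no fold is given. Hoxc6 rose in both lines, by 0.99 ± 0.12 and 1.18 ± 0.11, Hoxb6 in the control line by 1.26 ± 0.33 and Hoxa5 in the miR-148a line by 0.88 ± 0.20.

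In the sarcomere list (8 tested) Palld, which encodes the actin-associated palladin, was lower in the treated miR-148a cells at -1.20 ± 0.17 (adjusted p = 0.0158, edgeR), the opposite direction to Igfn1. Ttn responded with log2 values of -2.11 and -2.84, and Mylk rose by 1.87 ± 0.54 in the control line. In the miR-148a line Mylk had 1 and 3 counts untreated, at or under the floor, and 8 and 8 treated, so no fold is given. The muscle markers Myh1, Myh2, Myod1, Myog and Myl1 had no count in any library. Ckm, the muscle creatine kinase gene, made up most of the list's summed 69.6 to 170 CPM. It was the 1 muscle marker of 3 tested that was called between the lines, higher in the treated miR-148a cells at 1.04 ± 0.18 (adjusted p = 0.0291, edgeR). The B lineage genes Cd79a and Spib were also higher there, by 0.52 ± 0.10 and 0.70 ± 0.09 (adjusted p = 0.0339 and 0.0141, edgeR). They were the only 2 of 14 tested B lineage markers called with anti-IgM, against 1.36% of all genes tested called higher, and none was called untreated. The part of these markers in the differences of the 10 genes was not tested. The calls rest on few libraries. All 7 line differences of listed genes called with anti-IgM were lost from the 4 treated libraries alone (adjusted p = 0.0575 to 0.157, edgeR). The 2 called untreated were kept from the 4 untreated libraries alone. Between the lines, no gene at all was called untreated without any 1 of the 4 untreated libraries, and none with anti-IgM without replicate 2 of the treated control group. Of the 41 responses of listed genes called in the control line, 30 were lost without untreated control replicate 2 (adjusted p = 0.0521 to 0.221, edgeR), 29 without treated control replicate 1, 21 without untreated control replicate 1 and 17 without treated control replicate 2. Of the genes named, Axin2, Camkk1, Epb4.1l1, Gypc, Hoxc6, Pbx2 and Ppl held there without each library in turn. In the miR-148a line 20 of 45 calls were lost without untreated miR-148a replicate 1 (adjusted p = 0.0513 to 0.272, edgeR), among the genes named Camkk2, Fgf18, Frs3, Hoxa5, Jag1, Klc4, Mfng, Mylk, Notch3, Ptpn11, Sptbn1 and Trak1. Without treated replicate 2, untreated replicate 2 and treated replicate 1 of that line, 18, 17 and 9 of the 45 were lost. DESeq2 lost 10 of these 45 and 13 of the 41, among the genes named Hoxa5 and Klc4 of the miR-148a line and Fgf11, Hoxb6, Ndst2 and Ttn of the control line (adjusted p = 0.0515 to 0.156).

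The genes whose levels over the 8 libraries were most like the mean of the 10 genes (Pearson's r of log2 CPM, members centred) were Fam168a (r = 0.988), Rbmx (0.983), Rras (0.982), Gkap1 (0.982), S1pr1 (0.976) and Spint2 (0.975). The libraries share 4 groups, so this r is a measure of likeness and no test. Gkap1, a cGMP-dependent kinase anchoring protein, was higher in the miR-148a line by 1.25 ± 0.15 and 0.99 ± 0.15. S1pr1, a sphingosine 1-phosphate receptor of lymphocyte egress, was higher by 1.21 ± 0.22 untreated (adjusted p = 0.0546, edgeR; 0.000727 with DESeq2) and 1.51 ± 0.22 with anti-IgM (adjusted p = 0.0163). Spint2, a serine protease inhibitor, was higher by 0.71 ± 0.14 and 0.70 ± 0.14 (adjusted p = 0.0668 and 0.0417, edgeR; untreated 0.0112 with DESeq2). The others had the same pattern with smaller steps that were not called: the RNA-binding protein gene Rbmx differed by 0.26 ± 0.09 and 0.28 ± 0.10, Fam168a by 0.36 ± 0.09 and 0.37 ± 0.09, and the small GTPase gene Rras by 0.58 ± 0.17 and 0.62 ± 0.18. The mean of the 10 genes itself, centred on 0, was -0.90 and -1.03 in the untreated control libraries, -0.33 and -0.52 in the treated control libraries, 0.40 and 0.29 in the untreated and 1.01 and 1.07 in the treated miR-148a libraries.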

How the data were processed

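PolyA-selected RNA of 8 libraries was analysed from 1 table of estimated counts per gene symbol, deposited by the authors, which are expected counts with no normalisation (9.55% to 12.8% of a library's values were not whole). Libraries were made with a directional kit, per the labels' protocols. The submitters' processing notes name TopHat2 2.0.13 with Bowtie2, Partek 6.15.0730, CASAVA 1.8, edgeR and cutadapt, and the builds mm10 and GRCm38. For the counting, neither annotation nor strand setting is given in the sources used here.

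Of 24081 rows, 27 named by dates (0.213% to 0.235% of counts) were dropped, since a date names no gene. Counts were rounded. The test was edgeR 4.0.16 (R 4.3.3, limma 3.58.1): filterByExpr by group, TMM factors, the quasi-likelihood F test with 4 group means, Benjamini-Hochberg adjustment over 11291 genes, threshold 0.05, 4 residual degrees of freedom. The SE is the log2 fold change divided by the square root of F. Same-numbered libraries deviated together (r 0.495 to 0.569 over genes in the 6 pairs of groups), so the number, which follows the prefix of the library names, pairs them. Without that block the biological coefficient of variation was 11.1%, with it 5.98%.

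The members and all gene lists were chosen with earlier results of these data known. Named beside the 10 genes were up to 3 genes per list called in a line difference, otherwise the most abundant one, up to 2 per list called in each response, the 6 genes most like the members' mean, tested neighbours on the chromosome and the genes at the edge of the calls; some genes this rule takes are not reported here. Family relatives, with Agrn, Col18a1, Trak1 and Trak2, and the markers named were singled out after their values were seen. Alternatives were the block, RLE size factors, DESeq2 1.42.0, no filter, the 4 libraries compared alone, each library left out, and for within-number pairs no TMM factors and another prior count. Steps were tested on simulated data, drawn with no shared replicate effect, so that part of the real spread was not covered. Positions matched for 10789 of the tested genes.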

Additional observations from a re-analysis of the deposited data

How the results depend on the processing

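Which genes passed the line differences depended on the fit. The 10 genes' differences stayed between 0.89 and 2.87 on the log2 scale over 14 settings per difference. These differences chose the genes, from the same libraries, so their sign was all but set in advance and is a description only. All 10 were called in both differences with edgeR and TMM factors over the 8 libraries. RLE size factors gave 9 untreated, without Cdx1, and the 4 untreated libraries alone gave 7, without Cdx1, Hap1 and Jag2. Leaving out 1 library gave 0 to 8 of them untreated and 0 to 10 with anti-IgM, and the 4 treated libraries alone gave 5 with anti-IgM. The pairs within a replicate number were 40 of 40 above 0 also without TMM factors and with the other prior count. These pairs too are drawn from the values that chose the genes.

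Over all genes, the control line response had 1925 calls (1084 higher, 841 lower). It had 3929 with the replicate block, 972 higher and 1244 lower without the filter, 824 and 881 with DESeq2, and 540 to 2082 with 1 library left out. The miR-148a line response had 3238 calls, 5205 with the block and 1481 to 3155 with 1 library left out. The untreated line difference had 55 calls, 823 with the block, 179 without the filter, 150 with DESeq2 and 0 to 76 with 1 library left out. With anti-IgM it had 284, 1822 with the block, 450 without the filter, 16 from the 4 treated libraries alone and 0 to 222 with 1 library left out. Of the 10 genes, the number that rose with anti-IgM was 3 in each leave-one-out fit of the control line and 4 to 5 in the miR-148a line, and the block changed none of these calls.

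Signs changed in uncalled values when single libraries were left out. The control line response ran from -1.04 to 0.16 for Cdx1 (positive without untreated control replicate 1) and from -0.17 to 0.43 for Fzd6 (negative without treated control replicate 1). The miR-148a line response ran from -0.43 to 0.33 for Cdx1 (positive without untreated replicate 1, and 0.069 without treated replicate 2), from -0.11 to 0.14 for Igfn1 (negative without untreated replicate 2) and from -0.0635 to 0.044 for Fzd6, with 0.0035 and 0.022 among its positive values. Fzd6 there was also 0.0045 with the block, 0.0042 with RLE size factors and 0.0060 from the 4 libraries alone. The line difference of Kif5b with anti-IgM ran from -0.14 to 0.025. The cause of these changes was not tested. Counts as low as 25 in a library limit the precision.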
